A study of Mus musculus with 6 samples.

Results

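The multi-synthetase complex is represented here by 9 genes: 6 encode cytosolic aminoacyl-tRNA synthetases (Iars, Lars, Mars1, Qars, Rars and Kars) and 3 encode its scaffold proteins (Aimp1, Aimp2 and Eef1e1). The genes were taken by name, and all 9 had 1 array feature of their own, among 14860 genes so represented and 16755 features in all. The rule that names them uses no measured value, but they were named with earlier results of these data known. The other synthetases of the complex, encoded by Eprs and Dars, were not analysed here. Expression had been measured on 1-colour microarrays in tibialis anterior, a fast hind limb muscle, of 6 male mice aged 8 weeks. In 3 of these mice Atf4 had been knocked out in muscle (ATF4 mKO), and the other 3 were littermate controls. All 6 mice had gone without food for 24 h. The driver of the muscle-specific knockout and the exact genotype of the littermates are not given in the sources used here. Values are log2 expression values, and a log2 fold change is the ATF4 mKO mean minus the control mean.

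Aminoacyl-tRNA synthetases join each amino acid to its tRNA and so supply the ribosome with charged tRNAs. In animal cells several of the cytosolic enzymes are held together in a single large particle by the proteins AIMP1, AIMP2 and AIMP3, the last encoded by Eef1e1, whereas the remaining cytosolic enzymes work outside it. ATF4 is a transcription factor whose translation increases when eIF2 is phosphorylated, for instance when amino acids are scarce, and synthetase genes are among its known targets in cultured mammalian cells. Muscle is the main protein store of the body and releases amino acids during fasting. The comparison addressed how mRNA levels in fasted muscle differ without ATF4.

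The Atf4 feature was at 8.65, 8.76 and 8.76 in control mice 1 to 3 and at 6.73, 7.07 and 6.97 in ATF4 mKO mice 1 to 3 (log2 fold change -1.80 ± 0.10, SE; limma adjusted p = 0.00268). The signal was thus lower in each mouse labelled ATF4 mKO, although which exons the knockout removes and the feature covers is not known here. The 8 measured skeletal muscle markers of the 12 listed, Acta1, Ckm and Tnnt3 among them, stood between 10.6 and 12.7, at or above percentile 99.2 of all features. The list mean per mouse was at least 11.9 for muscle. For endothelium, macrophages, fibroblasts, satellite cells, adipocytes, erythroid cells, smooth muscle and Schwann cells it lay between 5.67 (satellite cells) and 8.13 (fibroblasts). The Schwann cell list had 1 of 3 genes measured. The fibroblast marker Dcn alone stood at 11.02 in both groups, at percentile 99.55, within the range of the muscle markers. The ranges of the groups overlapped for each of the 9 lists. The medians of log2 fold change in the 8 lists of other cell types ran from 0.00066 for adipocytes (4 of 4 measured) to 0.26 for erythroid cells (2 of 4 measured), and no marker passed the threshold. Of the 30 measured markers of these other cell types, 6 were higher without overlap (Cdh5, Tie1, Mrc1, Slc4a1, Cnn1 and Myh11), against 3.89% of all features, and none was lower without overlap. Cnn1, a smooth muscle gene, was at 128% and Tie1, an endothelial gene, at 112% of control, both at an unadjusted p under 0.05 in limma. Their part in the members' values was not tested. In whole muscle, fewer cells of a type and less RNA per cell cannot be told apart.

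Within the complex, the mRNAs of Mars1, Iars and Lars, the enzymes for methionine, isoleucine and leucine, were at 64.7% to 73.5% of control in ATF4 mKO muscle, with all 3 knockout mice below all 3 controls. The mRNAs of Qars, Rars and Kars and of all 3 scaffolds were at 92.9% to 106% of control, with overlapping groups. None of the 9 members passed limma's threshold, an adjusted p under 0.05 over all 16755 features. Lower calls made up 0.0119% of all features, namely Atf4 and Yars, and the call of Yars was lost when any 1 mouse was left out. At an unadjusted p under 0.05 in limma and lower were 3 of the 9 members, against 1.71% of all features. Groups without overlap and lower were 3 of the 9, against 3.89% of all features. None was without overlap and higher. The median log2 fold change was -0.06 over the 9 members, -0.25 over the 6 enzymes and -0.0017 over the 3 scaffolds, beside 0.0013 over all features.

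**Figure D1:**
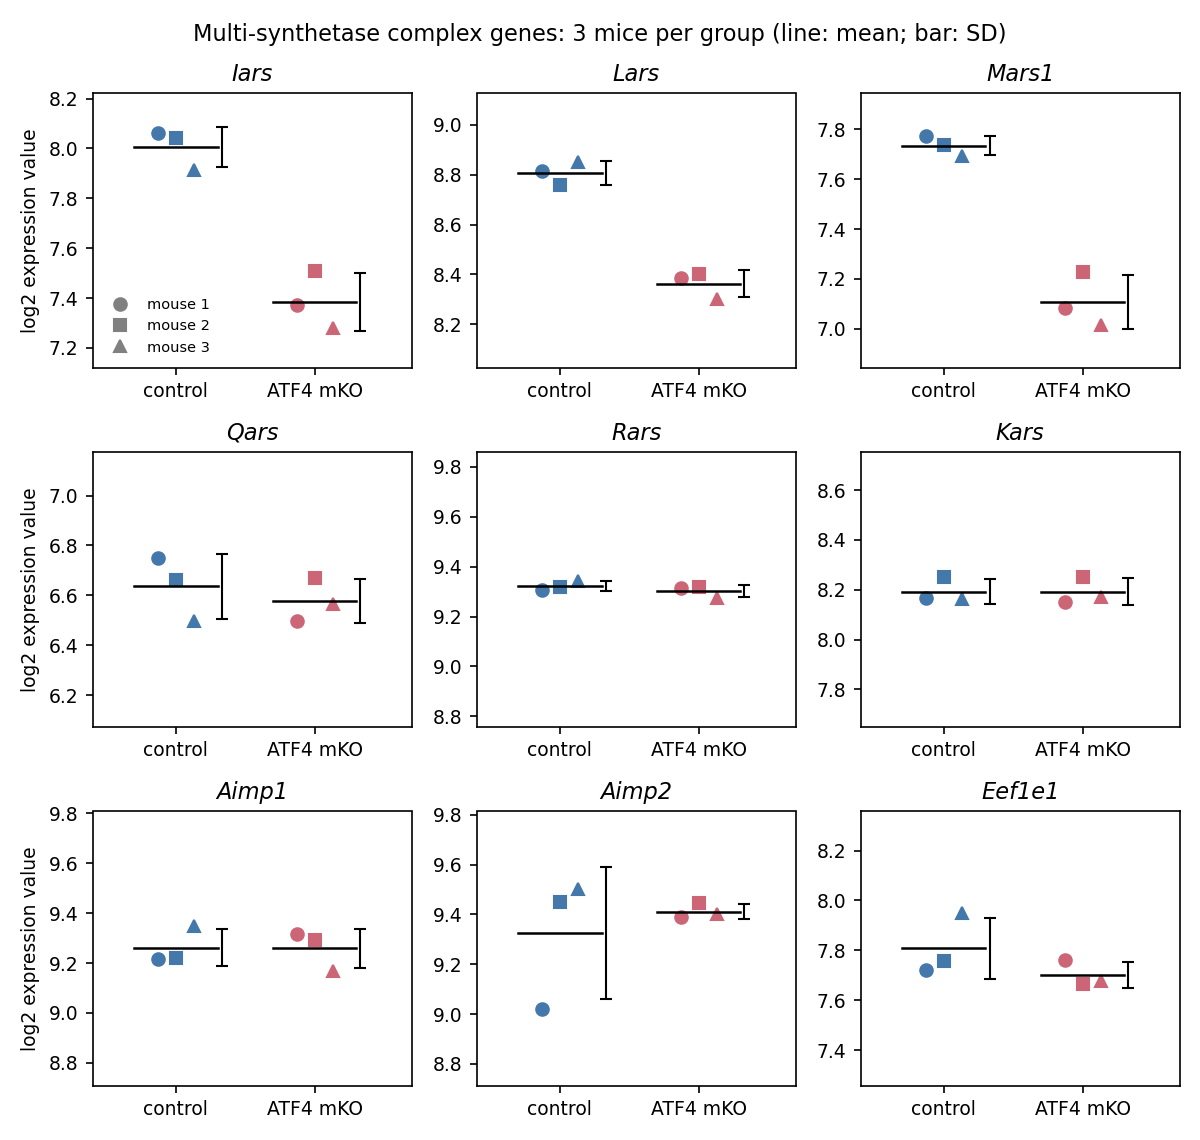
Deposited log2 expression values (y axis, every panel spanning the same range of log2 units) of the 9 complex genes in 3 control and 3 ATF4 mKO mice, 1 panel per gene; symbols are mice, horizontal lines are group means and bars are SD. In the panels of Iars, Lars and Mars1 all 3 ATF4 mKO mice lie below all 3 controls, whereas in the other 6 panels the groups overlap.

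Mars1 encodes methionyl-tRNA synthetase, which also charges the initiator tRNA that starts every protein. Its control values were 7.77, 7.74 and 7.69 and its ATF4 mKO values 7.08, 7.23 and 7.01 in mice 1 to 3. The highest ATF4 mKO mouse was therefore 0.47 below the lowest control, whereas the SD within groups was 0.04 in controls and 0.11 in the knockout mice. The difference of means was -0.63 ± 0.08 (SE) on the log2 scale, which is 64.7% of control with a 95% interval of 56.8% to 73.9%. Its adjusted p was 0.179 in limma, the smallest among the members, and it held rank 6 by p among the 16755 features. When the lower 50% of features by mean level were left out of the test, Mars1 passed with an adjusted p of 0.0371 in limma; over all 15 alternatives that p ran from 0.0371 to 0.967.

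Iars encodes isoleucyl-tRNA synthetase. Control mice were at 8.06, 8.04 and 7.91 and ATF4 mKO mice at 7.37, 7.51 and 7.28. The groups were 0.40 apart at their nearest values, with SDs of 0.08 and 0.12. The log2 fold change of -0.62 ± 0.09 (SE) corresponds to 65.1% of control (95% interval 56.4% to 75.1%), with an adjusted p of 0.260 in limma (0.0669 to 1.00 over the 15 alternatives) and rank 9 by p. Iars and Mars1 thus differed from control by nearly the same amount, the gap between their log2 fold changes being 0.0073 ± 0.027 (SE). The SE of this gap came from the spread of within-mouse gaps and is not limma's.

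Lars encodes leucyl-tRNA synthetase, which is also known in mammalian cells as a sensor of leucine for the growth kinase complex mTORC1. Its values were 8.81, 8.76 and 8.85 in controls and 8.39, 8.40 and 8.30 in ATF4 mKO mice, with 0.35 between the nearest mice of the groups. Both SDs were 0.05. The means differed by -0.44 ± 0.07 (SE) in log2 units, leaving 73.5% of control (95% interval 65.4% to 82.6%), with an adjusted p of 0.463 in limma (0.102 to 1.00 over the 15 alternatives) and rank 12 by p. For each of Mars1, Iars and Lars the two-sided exact permutation p over the 6 mice was 0.10, and groups of 3 cannot give a smaller one.

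**Figure D2:**
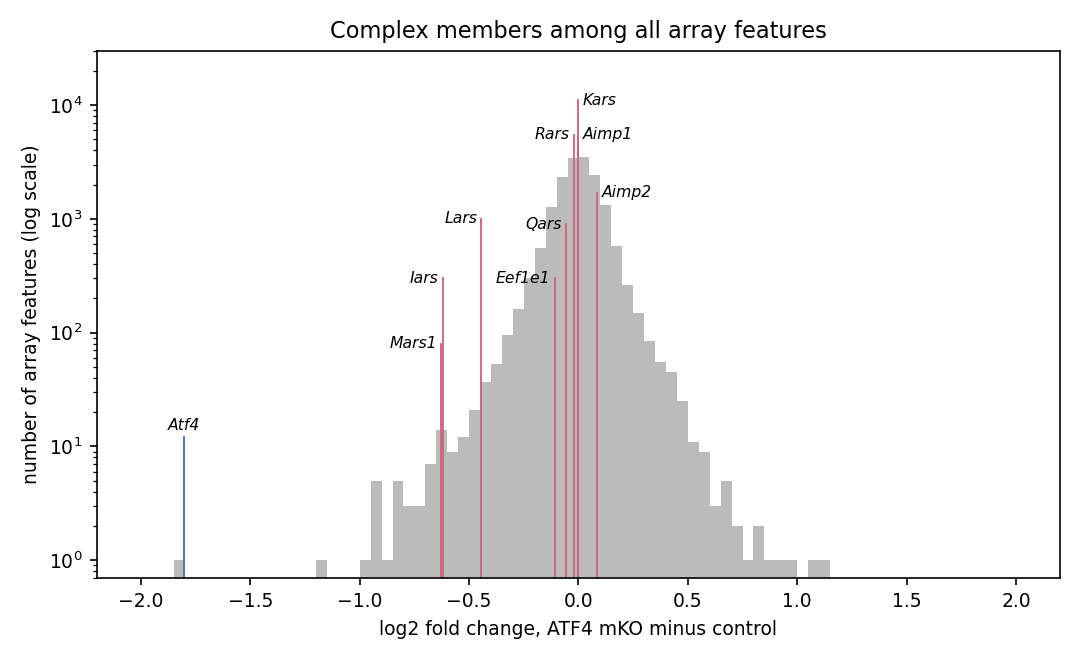
Histogram of the log2 fold change (x axis, ATF4 mKO minus control) of all 16755 array features, with the number of features on a log axis; red lines mark the 9 complex genes and the blue line Atf4, and the height of a line only places its name. Mars1, Iars and Lars lie in the lower tail at -0.63, -0.62 and -0.44, and the other 6 lie within the bulk between -0.11 and 0.09.

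Qars, Rars and Kars, the enzymes for glutamine, arginine and lysine, gave values near control. Qars had the lowest signal of the members, at percentile 70.8 of all features, with 6.75, 6.66 and 6.50 in controls and 6.50, 6.67 and 6.57 in ATF4 mKO mice. Control mouse 3 and ATF4 mKO mouse 1 were the low mice and the groups overlapped throughout. Its log2 fold change was -0.06 with a 95% interval of -0.27 to 0.16, a range whose lower end is 82.7% of control. Leaving out 1 mouse moved it between -0.13 (without control mouse 3) and -0.0012 (without control mouse 1).

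Rars was the most even of the enzymes. Controls were at 9.31, 9.32 and 9.34 and ATF4 mKO mice at 9.32, 9.32 and 9.27, with SDs of 0.02 and 0.03. The log2 fold change was -0.02 (95% interval -0.18 to 0.14), so the interval reaches down to 88.5% of control. Kars, a gene that encodes both the cytosolic and the mitochondrial lysyl-tRNA synthetase, had 8.17, 8.25 and 8.16 in controls and 8.15, 8.25 and 8.17 in ATF4 mKO mice. The means differed by -0.0012 with an interval from 88.9% to 112% of control. Which transcripts the Kars feature covers is not known here, so a difference in 1 form alone was not tested.

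The scaffold genes showed no difference that passed the test. Aimp1, which encodes the p43 protein that is also the precursor of a secreted cytokine, stood at 9.22, 9.22 and 9.35 in controls and 9.32, 9.29 and 9.17 in ATF4 mKO mice. Control mouse 3 was the highest and ATF4 mKO mouse 3 the lowest, and the log2 fold change was -0.0017 (95% interval -0.19 to 0.18). Eef1e1, which encodes AIMP3, stood at 7.72, 7.76 and 7.95 in controls and 7.76, 7.67 and 7.68 in ATF4 mKO mice. ATF4 mKO mouse 1 lay above control mice 1 and 2, so the groups overlapped. Its log2 fold change was -0.11 (95% interval -0.31 to 0.09), and it was -0.04 without control mouse 3 and -0.15 without control mouse 1.

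Aimp2 encodes the p38 protein around which the complex is assembled. Control mouse 1 was at 9.02 and the other controls at 9.45 and 9.50, whereas the ATF4 mKO mice were at 9.39, 9.44 and 9.40. The control SD was 0.26, the largest among the members, against 0.03 among the knockout mice. The log2 fold change of 0.09 (95% interval -0.21 to 0.39) depended on that mouse and became -0.07 without it, when every ATF4 mKO value lay just below both remaining controls. All 6 members of this near-control group had an adjusted p of 0.9999 in limma.

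Whether members of 1 complex differed from control by unequal amounts was examined through the gap between their log2 values within each mouse, for all 36 pairs. In all 18 pairs that set Mars1, Iars or Lars against 1 of the other 6 genes, the gaps of the ATF4 mKO mice did not overlap those of the controls. The log2 fold changes in these pairs differed by 0.34 (Lars against Eef1e1) to 0.71 (Mars1 against Aimp2), with SEs of 0.029 to 0.20. Mars1 against Kars differed by -0.63 ± 0.05 (SE) and Lars against Aimp1 by -0.44 ± 0.03 (SE). Each of the 18 had p = 0.10 by exact permutation, the lowest value available, and 0.189 after adjustment over the 36 pairs. The 2 sets of genes were formed after their values were seen, so the count of 18 describes that grouping. Among the 15 pairs of the near-control genes none was without overlap, and their differences were at most 0.19 in size (SEs 0.044 to 0.22). Within the lower group, Lars differed less from control than Mars1 did, by 0.18 ± 0.06 (SE), with gaps that did not overlap (exact permutation p = 0.10, adjusted p = 0.189), and Iars and Lars differed by -0.18 ± 0.08 (SE) with overlap.

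**Figure D3:**
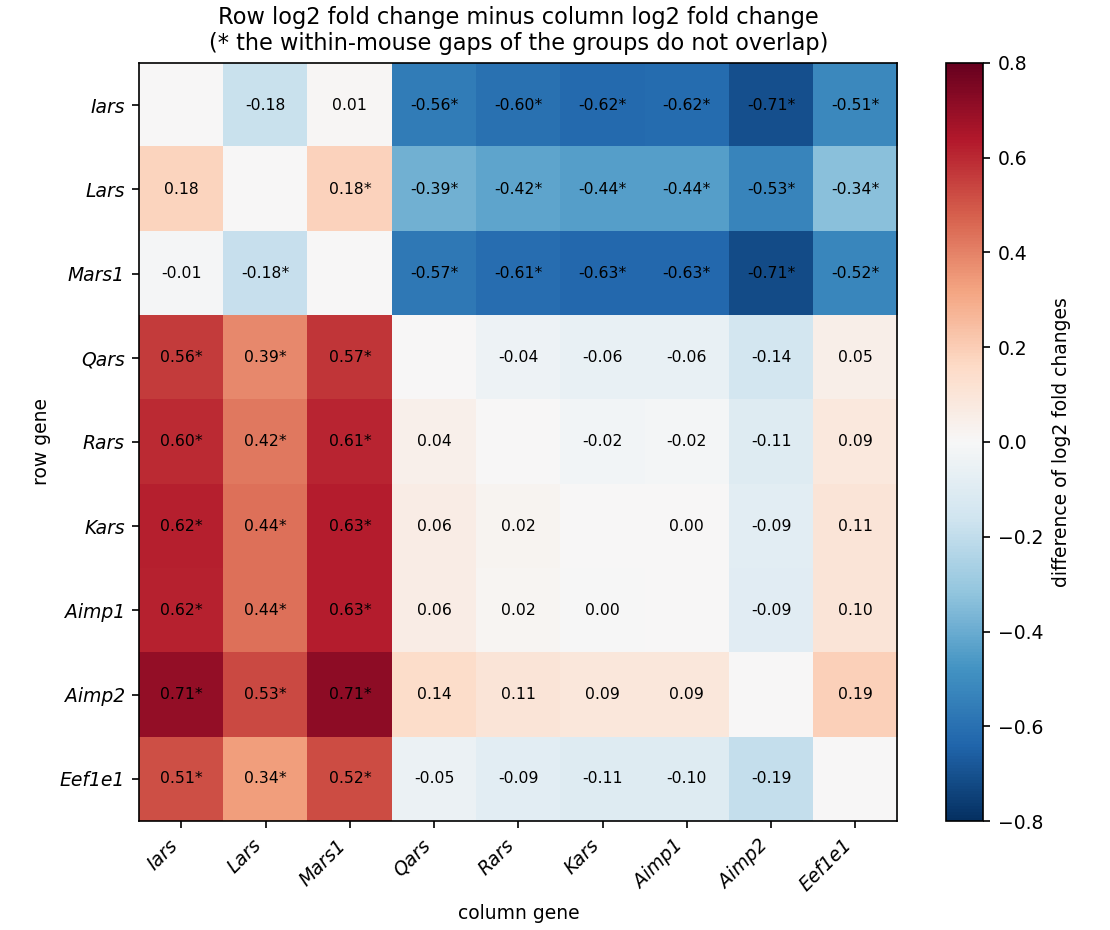
Difference between the log2 fold changes of every pair of complex genes, row gene minus column gene, in colour and as printed values; an asterisk marks pairs whose within-mouse gaps did not overlap between the 3 control and 3 ATF4 mKO mice. The rows of Iars, Lars and Mars1 hold asterisks against all 6 other genes, and the block of those 6 genes holds none.

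The mice could also be compared by their mean shift from the control mean. Over the 6 enzymes the mean shift was -0.32, -0.22 and -0.35 in ATF4 mKO mice 1 to 3 and 0.03, 0.01 and -0.04 in the controls. That mean joins 2 unlike sets of enzymes. In ATF4 mKO mice 1 to 3 the mean shift was -0.57, -0.47 and -0.65 over Iars, Lars and Mars1. Over Qars, Rars and Kars it was -0.06, 0.03 and -0.05. Over the 3 scaffolds it was 0.02, 0.0030 and -0.05 in ATF4 mKO mice and -0.15, 0.01 and 0.14 in controls. The scaffold mean thus varied more among controls, where Aimp2 of mouse 1 was low, than between the groups. In ATF4 mKO muscle, mouse 2 was the highest and mouse 3 the lowest for each of Mars1, Iars and Lars, and mouse 2 also had the highest Atf4 signal, but mouse 1 and not mouse 3 had the lowest.

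Outside the complex, the free cytosolic synthetases gave a similarly divided picture. Of 12 listed, 10 were measured, 1 passed the threshold (Yars, for tyrosine, at 55.9% of control with an adjusted p of 0.0337 in limma) and 6 were lower without overlap. Over all features, 0.0119% were called lower and 3.89% were lower without overlap. Of the 6, Farsb was at 90.9% of control, with 0.038 between the nearest mice of the groups. Yars passed in 6 of the 15 alternatives, and without any 1 mouse its adjusted p in limma was 0.127 to 0.244, with log2 fold changes of -0.86 to -0.81. Cars, for cysteine, was at 55.6% (adjusted p = 0.0588 in limma), Gars, for glycine, at 69.3% and Nars, for asparagine, at 74.3%. Their median log2 fold change was -0.27, beside -0.25 for the 6 enzymes of the complex. Mars1 and Iars, the lowest of the complex, stood between Gars and Yars, and no difference between the lists was tested.

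The mitochondrial synthetases had 15 of 17 measured, none called and none without overlap, with a median log2 fold change of 0.0047. The mitochondrial enzymes for the same amino acids as the lower members, named for that reason after the values were seen, were Iars2 at 98.3%, Lars2 at 102% and Mars2 at 103% of control. Their 95% intervals on the log2 scale were -0.20 to 0.15, -0.15 to 0.20 and -0.33 to 0.42. The members of that list with the smallest p were Pars2 (113% of control), Aars2 (94.9%), Rars2 (94.5%) and Nars2 (95.4%), each with an adjusted p of 0.9999 in limma. Elongation factor 1 carries charged tRNAs to the ribosome, and 3 of its 5 listed subunits were measured. None was called: Eef1a2 was at 103%, Eef1d at 99.9% and Eef1b2 at 95.7% of control. Eef1b2 was lower without overlap, as were 3.89% of all features, with 0.036 between the nearest mice of the groups.

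**Figure D4:**
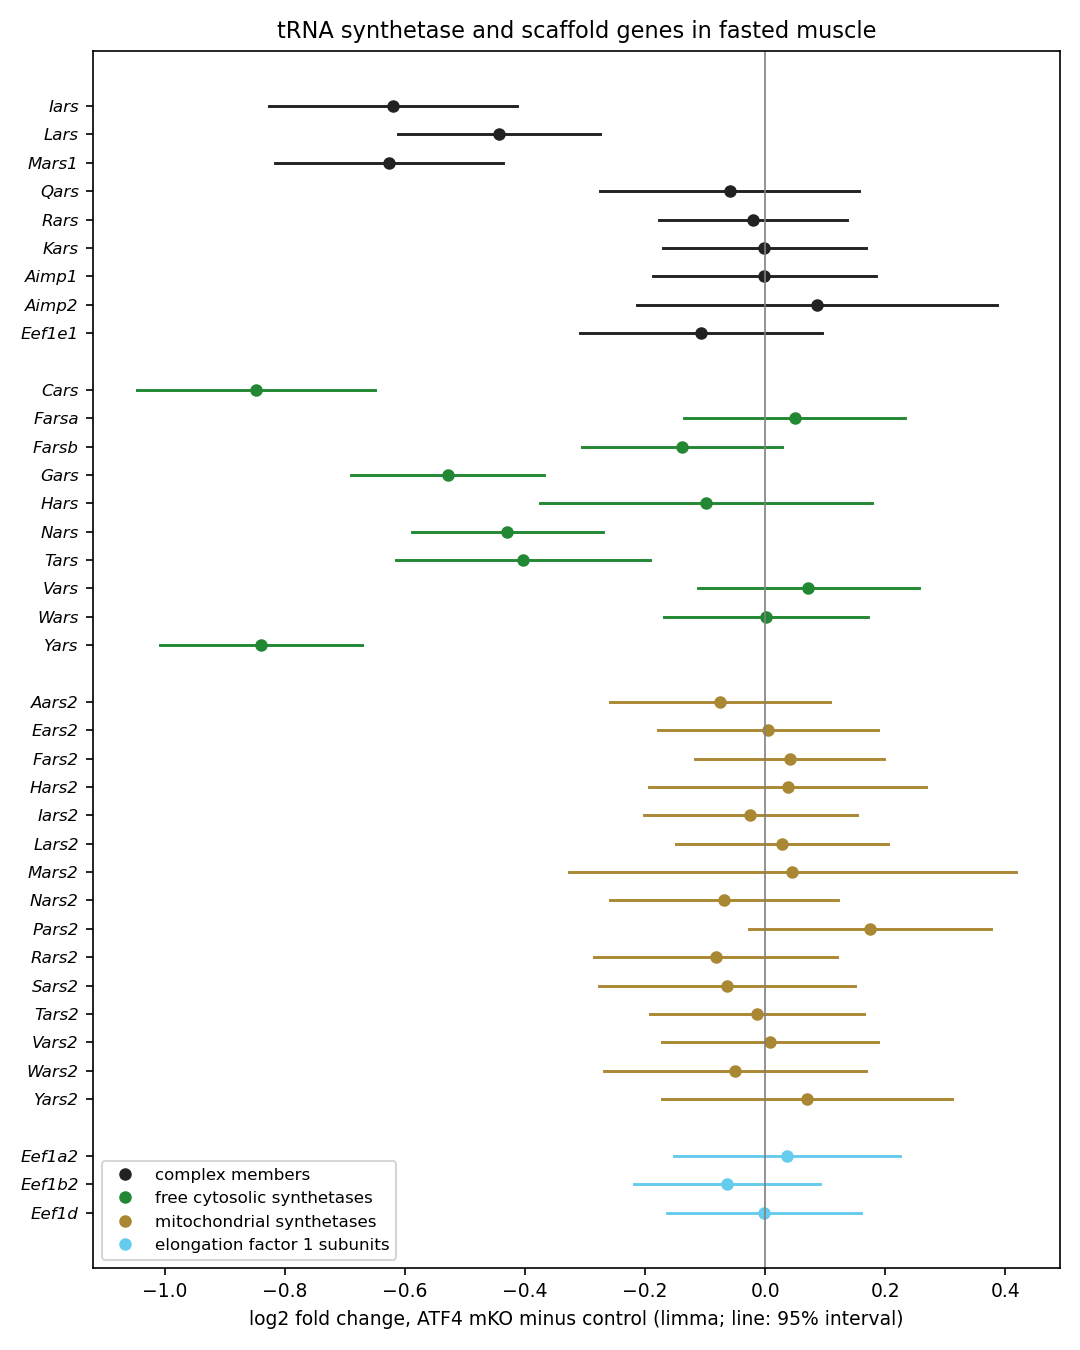
Log2 fold changes (points, x axis) with limma's 95% intervals (lines) for the 9 complex members, 10 free cytosolic synthetases, 15 mitochondrial synthetases and 3 elongation factor 1 subunits. The intervals of Mars1, Iars and Lars end at -0.44, -0.41 and -0.28 and lie wholly below 0, as do those of Cars, Yars, Gars, Nars and Tars, whereas those of the other 6 members and of all mitochondrial enzymes span 0.

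For the 3 members with the largest log2 fold changes, the features nearest in profile were sought among 7670 with 1 symbol and a mean above the median level. Likeness was the root mean square difference of mean-centred log2 values over the 6 mice, a measure that the difference between the groups dominates. Mars1 and Iars were nearer to each other (0.028) than to any feature outside the complex. The nearest outside were Gars (0.063), Yars (0.12) and Gadd45a (0.12), a stress-induced growth arrest gene, for Mars1, and Gars (0.074), Yars (0.13) and Nars (0.13) for Iars. Lars was nearest to Eif2s2 (0.047), which encodes the beta subunit of the initiation factor eIF2, then to Nars (0.049) and Gars (0.053). It was farther from the members Mars1 (0.11) and Iars (0.12) than from these genes outside the complex. Eif2s2 was at 76.5% of control with an adjusted p of 0.807 in limma.

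The stretches around the start sites were examined because ATF4 binds, with C/EBP partners, to elements whose core reads TGATGNAA. Promoter windows of 300 bases, 250 before to 50 after the start, were taken from RefSeq (GRCm38.p6) and searched for this core on both strands. Of the 9 members, 7 had a window. These made 8 windows, since Aimp1 had 2. A match was found in 1 of the 8, that of Iars, against 2.97% of the 14898 windows of genes with a feature of 1 symbol and 3.97% of all 32851 windows. The letters TTGCATCA, the core on the opposite strand, begin at base 8 of the Iars transcript, counting the start as base 1. The windows of Mars1, Qars, Kars, Aimp1, Aimp2 and Eef1e1 held no match, and Lars and Rars had no window in the table. The 3 windows below are those of the lower members Iars and Mars1 and of Kars, whose mean was at control level. They are printed 5′ to 3′ on the gene's strand, with the core in capitals, from chr13:49681880-49682179 (+ strand), chr10:127311737-127312036 (- strand) and chr8:112011305-112011604 (- strand) of GRCm38.p6.
Iars: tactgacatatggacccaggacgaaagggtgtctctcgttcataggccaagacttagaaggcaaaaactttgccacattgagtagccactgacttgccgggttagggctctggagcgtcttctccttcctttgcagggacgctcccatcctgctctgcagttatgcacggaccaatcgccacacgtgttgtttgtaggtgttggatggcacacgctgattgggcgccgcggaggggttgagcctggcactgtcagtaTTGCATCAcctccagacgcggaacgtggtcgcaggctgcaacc
Mars1: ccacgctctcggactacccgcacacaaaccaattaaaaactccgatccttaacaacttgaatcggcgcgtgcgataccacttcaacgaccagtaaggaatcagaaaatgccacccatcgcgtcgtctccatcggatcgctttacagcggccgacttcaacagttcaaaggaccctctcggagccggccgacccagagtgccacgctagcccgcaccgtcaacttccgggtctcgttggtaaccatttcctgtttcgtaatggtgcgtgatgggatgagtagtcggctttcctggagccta
Kars: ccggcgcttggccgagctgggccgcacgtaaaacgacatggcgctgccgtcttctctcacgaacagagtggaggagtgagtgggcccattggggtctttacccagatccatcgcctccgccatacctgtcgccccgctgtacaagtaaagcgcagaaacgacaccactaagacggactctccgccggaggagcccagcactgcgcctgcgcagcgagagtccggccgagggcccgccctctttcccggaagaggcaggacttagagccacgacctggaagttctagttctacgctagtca

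Among the free cytosolic synthetases 5 had a window, and 3 of these held the core: Yars, Gars and Tars, which stood at 55.9%, 69.3% and 75.6% of control. The 2 without it were Farsa at 103.5% and Farsb at 90.9% of control, the latter lower without overlap. Cars and Nars, at 55.6% and 74.3% of control, had no window, nor had Hars, Vars and Wars at 93.4%, 105.1% and 100.1%. Whether the core goes with lower values was not tested. None of the 14 windows of the mitochondrial synthetases held it. A match describes letters within a window and does not show binding, and Mars1, whose mRNA was as far below control as that of Iars, had none within its window.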

How the data were processed

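The log2 values of each feature were used as deposited. Per the submitters' processing notes the authors used GCOS and RMA with build mm9. The log2 scale was read from the values (1.63 to 13.0), and no version was stated. RMA compresses differences near background, and array number limits the precision. Features were named from GEO's platform annotation: 14996 had 1 symbol, 1019 several and 740 none.

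All 16755 features were fitted with limma 3.58.1 (lmFit, eBayes; R 4.3.3), group as the only term, with Benjamini-Hochberg adjustment and a threshold of 0.05. The fit was run on simulated data, where only changes far larger than those of the members had to be recovered, with few false calls. No recovery is given here for changes of the members' sizes. Exact permutation tests used scipy 1.17.1. The titles number the mice 1 to 3 but state no pairing. Members and lists were chosen with earlier results of these data known. Named were all members, Atf4, up to 4 genes per list with the smallest p and those that passed, and the 3 nearest profiles. Also named, outside that rule, were the other measured free cytosolic synthetases, Iars2, Lars2 and Mars2, and some cell type markers. Alternatives were a replicate block, other scaling, filters and moderation, array weights, a threshold of 0.10 and leaving out each mouse.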

Additional observations from a re-analysis of the deposited data

How the results depend on the processing

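Mars1, Iars and Lars kept log2 fold changes below 0 in all 15 alternatives, but most of these could not have changed the sign. The block, the filters and the changes of moderation left the values as they were. Array weights and leaving out 1 mouse cannot reverse groups without overlap, and leaving out 1 mouse cannot make them overlap. Median centring could not have done so either. The array medians ran from 5.842 to 5.909, whereas the groups of these genes were 0.35 to 0.47 apart. Quantile normalization acted on values already processed by RMA and left the log2 fold changes of Mars1, Iars and Lars at -0.633, -0.618 and -0.427. Under both, 3 members stayed lower without overlap. Without 1 mouse the values of Mars1, Iars and Lars ran from -0.69 to -0.58, -0.68 to -0.57 and -0.47 to -0.41. Only 1 alternative called any member: leaving out the lower 50% of features gave 1 member, lower, namely Mars1 with -0.63 (fewer features tested). Members lower without overlap numbered 3 (range 3 to 5 without 1 mouse). Rars and Aimp2 joined without control mouse 1 (5 members), and Eef1e1 without ATF4 mKO mouse 1 (4). Fewer mice loosen this criterion for any feature, and no share of all features is given. The log2 fold change of Aimp2 was -0.0655 without control mouse 1 and at most 0.18, without control mouse 3. Those of Kars and Aimp1 also took both signs, between -0.03 and 0.04.

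The count of called features, 2 and all lower, was 7 when the lower 50% of features were dropped or when moderation was robust with an intensity trend. It was 4 when the lowest 30% were dropped, when features with several symbols or none were dropped, or at a threshold of 0.10. It was 1 after median centring and whenever 1 mouse was left out (range 1 to 1), and 0 without moderation in limma, where 632 features had an unadjusted p under 0.05. Atf4 without moderation was -1.80 with an adjusted p of 0.192 in limma (range 0.000378 to 0.192). With the replicate number as a block the count was 1. The call lost wherever the count was 1 was Yars. Under the block Mars1, Iars and Lars had adjusted p-values of 0.656, 0.656 and 0.867 in limma. Same-numbered mice had correlations of deviations of -0.0021, 0.069 and 0.14, so the numbers were not taken to pair the mice, and not every mouse correlated best with its own number. Apart from the counts given, the causes of these shifts were not tested. Averaging several features of a member was not run, because each member has 1. Detection above background could not be judged from the deposited values.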
